A study of Mus musculus with 16 samples.

Results

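The genes described here are 10 genes of natural killer (NK) cells and of cytotoxic effector cells: Gzma, Gzmb, Gzmk, Prf1, Nkg7, Fasl, Klrk1, Klrd1, Klrb1c and Ncr1. They were chosen by name, as the array spots that carry one of these symbols, and make up 10 of 21266 named genes on the array. RNA came from female mice of the strain C57Bl/6, which all had acute hepatitis from 300 µg of concanavalin A, a lectin from jack beans that stimulates T cells. Part of the mice also received 100000 adipose tissue-derived stem cells through the tail vein, expanded in culture from inguinal fat of C57Bl/6 mice. Livers fell into 4 groups of 3: 5 h after concanavalin A with stem cells given at 3 h, 5 h without stem cells, 2 h with stem cells given at once, and 2 h without stem cells. Hepatic inflammatory cells, taken from the liver at 5 h, fell into 2 groups of 2, with stem cells given at 3 h and without. The design compared stem cells with none at each time and in each tissue. No mouse without concanavalin A was measured, so every value is a level during hepatitis.

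NK cells and cytotoxic T cells kill a target by releasing granules that hold perforin and granzymes: perforin opens the target's membrane, and the granzymes, which are serine proteases, then start its death. The same cells can also kill through Fas ligand, which binds the death receptor Fas on the target. Whether an NK cell kills is set by the balance of activating receptors such as NKG2D and NKp46 and of inhibitory ones such as the CD94 and NKG2A pair. The liver holds many NK cells, and NKT and T cells are known responders to concanavalin A. In RNA of whole liver or of mixed cells, fewer cells of a type and less RNA per cell cannot be told apart.

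Of the 10 genes, 8 had a probe that passed the filter on dim probes in the livers, and all 10 did in the inflammatory cells. Gzmk and Ncr1 were left out of the liver comparisons because their probes were well above background on fewer than 3 of the 12 liver arrays. Levels are given as log2 of the array signal minus the 75th percentile of that array, so 0 is the level that 25% of the spots exceed. Each array had 52.1% to 62.5% of its spots well above background, and the number of arrays limits the precision. Samples are called by their label numbers. Liver 10, with stem cells, and liver 13, without, both at 2 h, stood apart from the other livers of their groups in neutrophil markers, with mean centred levels of -2.10 and -2.80 against -0.62 to -0.15 in the other 4 livers at 2 h. Results that rest on them are given without them where that changes a call. The tissue labels were borne out by hepatocyte and lymphocyte markers, counted with stem cells among those that passed the filter in the livers. In the inflammatory cells 13 of 13 hepatocyte markers were lower than in liver, and 11 of 11 B cell markers and 13 of 15 T cell markers were higher. Of 11 neutrophil markers 6 were higher and 1 lower, and of 15 macrophage and Kupffer cell markers 5 were higher and 1 lower. All 5 erythroid markers were higher. All inflammatory cells were hybridised on 1 slide that held no liver, so slide and tissue cannot be told apart. The labels do not say that the samples of inflammatory cells came from separate mice, so their p-values measure only the spread between these samples. The labels of both samples without stem cells differ among themselves: the source field names stem cells and the fields for treatment and description name none, so these samples were used as untreated. The 12 livers were spread over 3 slides, each with 1 liver of every group.

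**Figure D1:**
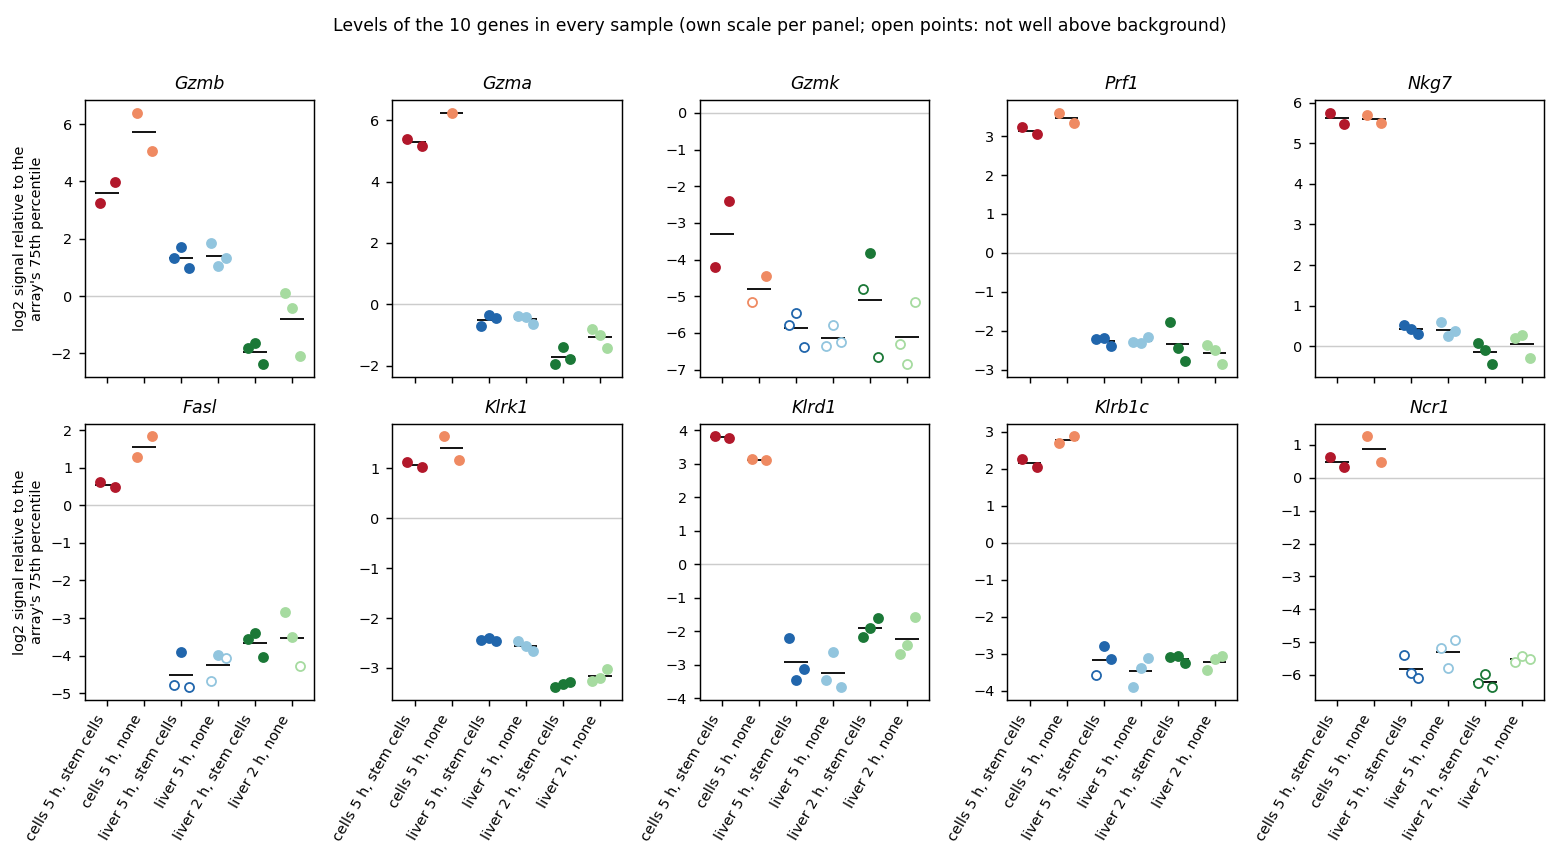
Levels of the 10 genes in every sample, as log2 of the signal over the 75th percentile of its array, with 1 panel per gene on its own scale. Points are samples, black lines are group means, and open points were not well above background. The inflammatory cells lie above every liver for 9 of the 10 genes, and Gzmk is the exception.

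The clearest change in the livers was that of granzyme B between 2 h and 5 h. With stem cells, the 2 times also differ in when these were given, at once or at 3 h. Time and schedule cannot be told apart in that comparison, while the livers without stem cells differ in time alone. Gzmb encodes granzyme B, the protease that cleaves caspases and Bid in the target cell. Its level was 1.33, 1.71 and 0.97 in the 3 livers at 5 h with stem cells, against -1.82, -1.64 and -2.37 in those at 2 h with stem cells. Without stem cells it was 1.84, 1.04 and 1.31 at 5 h, against 0.09, -0.40 and -2.10 at 2 h. The 2 times did not overlap in either treatment, and at 2 h the liver without stem cells that was lowest was liver 13. Gzmb rose by 3.28 ± 0.49 (log2 change ± standard error of the limma fit, adjusted p = 0.00267), a 9.72-fold change, in the livers with stem cells. It rose by 2.20 ± 0.49 (adjusted p = 0.0164), or 4.61-fold, in those without. Within the 3 slides the difference was 3.15, 3.35 and 3.35 with stem cells, and 2.24, 0.96 and 3.41 without.

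Gzma, which encodes granzyme A, a tryptase that kills by a route without caspases, also rose in the livers with stem cells. Its level was -0.72, -0.36 and -0.43 at 5 h with stem cells and -1.95, -1.40 and -1.79 at 2 h with stem cells, so the times did not overlap. Gzma rose by 1.21 ± 0.20 (adjusted p = 0.00402) there. In the livers without stem cells it was -0.39, -0.42 and -0.65 at 5 h and -0.82, -1.01 and -1.41 at 2 h, again without overlap, and the change of 0.59 ± 0.20 missed the threshold (adjusted p = 0.0675). Klrk1 encodes NKG2D, an activating receptor for stress-induced ligands. It lay at -2.44, -2.40 and -2.47 at 5 h with stem cells and at -3.39, -3.33 and -3.28 at 2 h with stem cells. In livers without stem cells it lay at -2.45, -2.56 and -2.66 at 5 h and at -3.27, -3.20 and -3.02 at 2 h. Klrk1 rose by 0.90 ± 0.12 (adjusted p = 0.00144) with stem cells and by 0.60 ± 0.12 (adjusted p = 0.0102) without. These are dim spots, with a mean linear signal of 45.6 at 5 h with stem cells and 27.0 at 2 h with stem cells. The second Klrk1 probe was not well above background on any of the 12 livers.

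**Figure D2:**
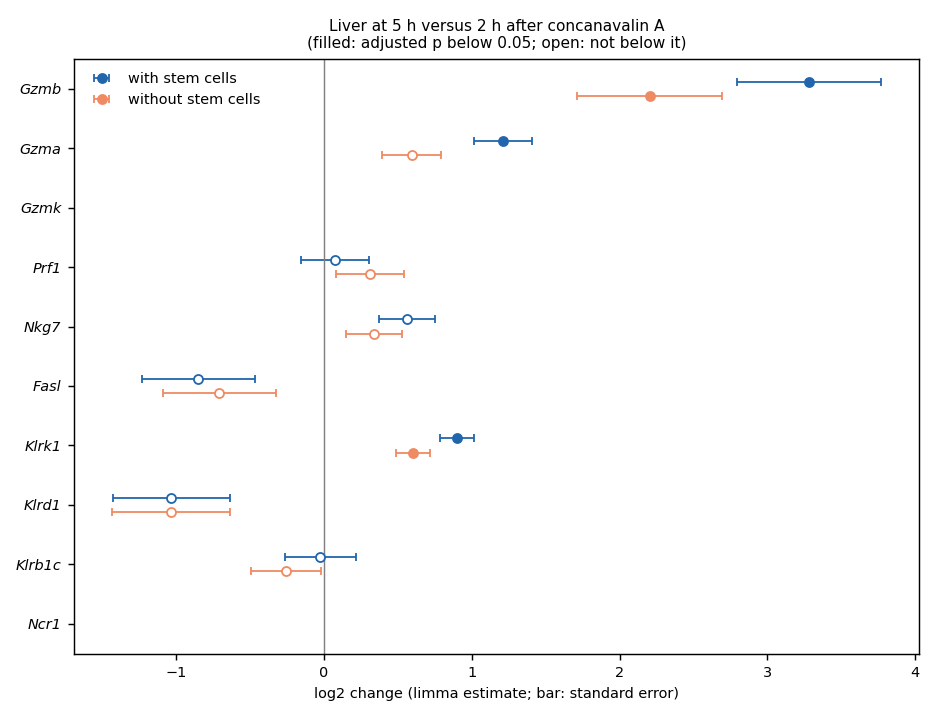
Log2 change between livers at 5 h and at 2 h after concanavalin A for the 8 genes that passed the filter, with stem cells and without (limma estimates, bars are standard errors). Filled points passed the adjusted threshold: Gzmb, Gzma and Klrk1 with stem cells, and Gzmb and Klrk1 without. With stem cells, the times also differ in when the stem cells were given.

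Together 3 of the 8 measured genes rose between the times with stem cells and 2 without, and 0 fell in either. Over all genes of the liver fit, 18.6% were called in the comparison with stem cells, 8.75% as higher, and 15.7% in that without, 6.44% as higher. The times were apart for 5 of the 8 genes with stem cells and 4 without, beside 42.7% and 35.9% of all genes. The median change of the 8 genes was 0.32 with stem cells and 0.33 without, beside -0.08 and -0.07 over all genes. Prf1, the gene of the pore former perforin, was not called. Prf1 lay at -2.20, -2.18 and -2.39 at 5 h with stem cells and at -1.79, -2.44 and -2.77 at 2 h with stem cells, which overlap, and its change was 0.07 ± 0.23 (adjusted p = 0.866). Prf1 without stem cells lay at -2.30, -2.31 and -2.17 at 5 h, against -2.38, -2.49 and -2.86 at 2 h. These times did not overlap, and the change of Prf1 was 0.31 ± 0.23 (adjusted p = 0.377, limma). Nkg7, a membrane protein of cytotoxic granules, did not overlap between the times with stem cells, at 0.54, 0.42 and 0.30 at 5 h and 0.09, -0.10 and -0.44 at 2 h. Its change of 0.56 ± 0.19 missed the threshold (adjusted p = 0.0638, limma), and its second probe differed by 0.63. In livers without stem cells Nkg7 overlapped between the times, with a change of 0.34 (adjusted p = 0.245, limma), while its second probe did not overlap.

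Klrd1 had lower means at 5 h and was not called. It encodes CD94, which pairs with NKG2 receptors to bind the class I molecule Qa-1. Its level was -2.20, -3.46 and -3.12 at 5 h with stem cells against -2.17, -1.92 and -1.60 at 2 h with stem cells, and -3.47, -2.64 and -3.68 at 5 h without against -2.69, -2.40 and -1.59 at 2 h without. The times did not overlap with stem cells, the nearest being liver 1 at -2.20 and liver 8 at -2.17, and overlapped without. The change was -1.03 ± 0.40 in both treatments (adjusted p = 0.0965 with stem cells and 0.102 without). Without liver 1 it was -1.40 (adjusted p = 0.0454, with 0.0202 to 0.285 over every setting tried). Klrb1c, the NK1.1 antigen of C57Bl/6 mice, differed by -0.02 ± 0.24 with stem cells and -0.26 ± 0.24 without. These too are dim spots, with mean linear signals of 28.98 to 36.45 over the liver groups. The second Klrb1c probe was not well above background on any liver. Fasl was near background in most livers, well above it on 1 of 3 arrays in each group at 5 h, so its changes of -0.85 ± 0.38 (adjusted p = 0.148) with stem cells and -0.71 ± 0.38 without have little signal behind them.

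With background correction by normexp in place of the scanner's, Gzmb changed by 2.12 with stem cells and kept its call, while Gzma (0.39, adjusted p = 0.43) and Klrk1 (-0.17) lost theirs. Normexp was run with an offset of 50. With the scanner's correction, the mean linear signal of Klrk1 with stem cells was 45.6 at 5 h and 27.0 at 2 h. For Gzma it was 176.6 and 83.3, and for Gzmb 655.9 and 71.3. Without stem cells the call of Klrk1 was lost with normexp (adjusted p = 0.915) and when only these 6 livers were fitted (0.0867), over a range of 0.00266 to 0.915. The call of Gzmb there was lost under that smaller fit too (adjusted p = 0.0866), or when liver 4 (0.0658) or liver 6 (0.0526) was left out, over a range of 0.00473 to 0.0866, and without liver 13 the change was 1.56 (adjusted p = 0.0187). Markers of other cells moved between the times too. All 11 measured neutrophil markers were above 0 in change in both treatments, with mean centred levels of 1.21 to 1.25 at 5 h with stem cells and -2.10 to -0.15 at 2 h with stem cells. Without stem cells these levels were 0.74 to 0.92 at 5 h and -2.80 to -0.20 at 2 h. The 15 T cell markers had levels of -0.03 to 0.08 at 5 h and -0.20 to 0.18 at 2 h with stem cells, with 1 called higher and 1 lower. Of 5 erythroid markers 4 were called higher at 5 h with stem cells, and of 12 endothelial markers 6 were called lower without. The part of these markers in the result was not tested.

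The promoters of Gzmb, Gzma, Klrk1 and Prf1 are shown because the first 3 genes rose between the times and the perforin gene was not called. RefSeq promoters (build GRCm38.p6) were given for 9 of the 10 genes, and the 250 bases before the annotated gene start were searched on both strands. The motifs were AP-1 (TGANTCA), Runx (TGTGGT), STAT (TTCNNNGAA), T-box (GGTGTGA) and the interferon-stimulated element (GAAA, any 2 bases, GAAA). The stretches are chr14:56262335-56262584 (minus strand) for Gzmb, chr13:113100982-113101231 (minus strand) for Gzma, chr6:129623865-129624114 (minus strand) for Klrk1 and chr10:61297586-61297835 (plus strand) for Prf1. They run 5′ to 3′ along the gene, and capitals mark the motif matches, of which none overlap.
Gzmb: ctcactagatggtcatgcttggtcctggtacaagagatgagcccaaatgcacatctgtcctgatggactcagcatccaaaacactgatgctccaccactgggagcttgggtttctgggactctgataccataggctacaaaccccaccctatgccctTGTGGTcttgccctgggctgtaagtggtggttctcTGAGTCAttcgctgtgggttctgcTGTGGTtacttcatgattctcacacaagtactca
Gzma: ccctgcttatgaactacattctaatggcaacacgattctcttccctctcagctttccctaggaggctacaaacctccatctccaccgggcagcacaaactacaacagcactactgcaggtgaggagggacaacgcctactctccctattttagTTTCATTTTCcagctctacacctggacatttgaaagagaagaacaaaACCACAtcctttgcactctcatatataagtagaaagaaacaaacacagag
Klrk1: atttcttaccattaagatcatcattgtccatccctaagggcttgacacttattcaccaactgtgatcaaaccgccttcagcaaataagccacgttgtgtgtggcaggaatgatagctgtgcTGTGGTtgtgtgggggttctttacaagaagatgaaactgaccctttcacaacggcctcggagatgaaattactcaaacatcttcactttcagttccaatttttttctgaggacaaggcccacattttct
Prf1: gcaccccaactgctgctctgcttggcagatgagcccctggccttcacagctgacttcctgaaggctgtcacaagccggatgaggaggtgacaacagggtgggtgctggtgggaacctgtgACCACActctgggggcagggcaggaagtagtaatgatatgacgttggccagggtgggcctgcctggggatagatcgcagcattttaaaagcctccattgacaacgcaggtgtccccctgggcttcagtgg
Gzmb holds 2 Runx matches and 1 AP-1 match, the AP-1 match from base -58 to -52 before the gene start. Gzma, Klrk1 and Prf1 hold 1 Runx match each, which lies on the other strand in Gzma and Prf1. Gzma also holds an interferon-stimulated element match on the other strand, from base -97 to -88. Of the 9 genes, 7 hold a Runx match, against 14.0% of 32851 promoters of the same length in the table. AP-1 is found in 1 of the 9 and in 6.75% of all, T-box in 2 and in 3.33%, STAT in 1 and in 7.02%, and the interferon-stimulated element in 1 and in 2.98%. A match is a stretch of letters and does not show that a factor binds there.

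The wider NK programme is given from 7 lists with 110 measured genes, of which 23 passed between the times with stem cells and 14 without. These are shares of 20.9% and 12.7%, near the 18.6% and 15.7% of all genes, so the counts show nothing particular to the lists, and single genes moved in both directions. In RNA of whole liver, the cells in which these genes changed cannot be told apart, and a change need not lie in NK cells. Of 18 measured genes of granule contents and release, which include 4 of the genes above, 4 rose and 1 fell with stem cells, and 1 rose and 1 fell without. Srgn, the proteoglycan that packs granzymes, rose by 1.48 ± 0.43 with stem cells, and Lyst, the lysosomal trafficking regulator, fell by 1.11 ± 0.25 with stem cells and by 1.54 ± 0.25 without. Of 17 measured NK receptors 3 rose with stem cells, Klrk1 among them, with Cd244a, the SLAM family receptor 2B4, up by 1.97 ± 0.40 and the Fc receptor gene Fcgr3 by 1.09 ± 0.24. Without stem cells 1 receptor rose and Cd7 fell by 0.71 ± 0.19. Of 9 transcription factors 3 rose with stem cells: Nfil3, which NK cell development needs, by 2.29 ± 0.23 (adjusted p = 0.000431), Id2 by 1.96 ± 0.36 and Ets1 by 0.55 ± 0.16. Without stem cells Nfil3 rose by 1.16 ± 0.23 and Tox fell by 2.14 ± 0.49.

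Of 13 receptor adaptors and signalling genes 3 rose with stem cells, Vav1 by 0.73 ± 0.14, Syk by 0.87 ± 0.20 and Fyn by 0.53 ± 0.14. Without stem cells 2 fell, the inositol phosphatase gene Inpp5d by 0.77 ± 0.19 and Plcg2 by 0.73 ± 0.21. Of 24 cytokines and cytokine receptors 2 rose and 2 fell with stem cells, and 1 rose and 1 fell without. Cxcr3, a chemokine receptor of effector lymphocytes, fell in both treatments, by 0.89 ± 0.24 with stem cells and 1.33 ± 0.24 without. Il18r1, a chain of the interleukin 18 receptor, was at least 2.27-fold higher at 5 h with stem cells (adjusted p = 0.00451) and rose by 1.56 ± 0.32 without. S1pr5, which NK cells use to leave lymph nodes and marrow, was at least 2.52-fold lower at 5 h with stem cells (adjusted p = 0.0337). Of 15 genes of the death ligand pathway 3 rose with stem cells: the Fas receptor gene Fas by 2.03 ± 0.53, Casp8 by 1.20 ± 0.23 and the anti-apoptotic Bcl2l1 by 1.33 ± 0.34. Bcl2l1 was the 1 gene of that list called without stem cells, at 1.33 ± 0.34. Of 14 ligands of NK receptors 1 rose and 1 fell with stem cells, and 3 fell without. H2-T23, the Qa-1 molecule that CD94 binds, rose by 0.44 ± 0.13 with stem cells, while the adhesion genes Cadm1 and Nectin3 fell by 0.50 ± 0.13 and 0.70 ± 0.20 without.

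In the livers at 2 h, where stem cells were given together with concanavalin A, both granzymes had lower means with stem cells, and 0 of the 8 genes passed the test in limma. The background was 0.0274% of all genes, and 2 of the 8 had an unadjusted p below 0.05. Gzmb averaged -1.94 ± 0.38 with stem cells and -0.80 ± 1.15 without (SD, n = 3 each), a change of -1.14 ± 0.49 (adjusted p = 0.864). Of the 3 untreated livers, livers 11 and 12 lay at 0.09 and -0.40, above all treated ones, and liver 13 at -2.10 lay among them. Without liver 13 the change was -1.79 (adjusted p = 0.0215), and without livers 10 and 13 it was -1.57 (adjusted p = 0.036), while over all settings the adjusted p ran from 0.0215 to 1. The count over all genes also moved, from 4 in the main fit to between 2 and 481 with 1 liver left out at a time. By slide the difference was -1.42, -2.46 and 0.46, and the third is the pair of liver 9 and liver 13.

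Gzma averaged -1.72 ± 0.28 with stem cells and -1.08 ± 0.30 without, and 1 liver of each group overlapped. The change was -0.64 ± 0.20 (adjusted p = 0.722, limma), and it was -0.94, -0.98 and 0.01 within the slides. With normexp it was 0.01. Klrk1 had groups that did not overlap, with a change of -0.18 ± 0.12 (adjusted p = 0.864, limma). Of all genes, 8.2% had groups apart in this comparison. The nearest Klrk1 values were -3.28 in liver 10 and -3.27 in liver 11, and with normexp its change turned to 0.61. The changes of Prf1 (0.24 ± 0.23), Klrd1 (0.33 ± 0.40), Klrb1c (0.07 ± 0.24), Fasl (-0.12 ± 0.38) and Nkg7 (-0.21 ± 0.19) were of the size of their errors or little above. The median change of the 8 genes was -0.15, beside 0.08 over all genes. Of 110 genes in the 7 pathway lists 0 passed and 12 (10.9%) had an unadjusted p below 0.05, beside 5.6% of all genes. Those with the smallest p in their lists included Vav1 (-0.51 ± 0.14), the 2B4 ligand gene Cd48 (-0.58 ± 0.17), Id2 (-1.03 ± 0.36) and the receptor gene Cd96, which was not well above background in the untreated livers and at least 1.73-fold higher in the treated livers (adjusted p = 0.687). Erythroid markers were lower in all 3 livers with stem cells, with mean centred levels of -1.03 to -0.56 against -0.36 to 0.39, and their part was not tested.

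At 5 h, 2 h after stem cells had been given, the means of the 8 genes in livers with stem cells and without lay within 0.33 of each other. In limma 0 of 8 passed, against a background of 0.0342%, and 0 had an unadjusted p below 0.05. Gzmb averaged 1.34 ± 0.37 with stem cells and 1.40 ± 0.41 without, and its change was -0.06 ± 0.49. Gzma averaged -0.51 ± 0.19 with stem cells and -0.49 ± 0.14 without, with a change of -0.02 ± 0.20, and Prf1 averaged -2.26 in both groups. The furthest from 0 were Klrd1 at 0.33 ± 0.40, Klrb1c at 0.30 ± 0.24 and Fasl at -0.26 ± 0.38. All 8 genes had overlapping groups, while 22.2% of all genes had groups apart. The median of the 8 was 0.01, beside 0.08 over all genes. Of the 110 list genes 0 passed and 12 (10.9%) had an unadjusted p below 0.05, beside 12.4% of all genes. The smallest p in their lists belonged to Il12rb1, a chain of the interleukin 12 receptor (-1.26 ± 0.32, adjusted p = 0.212), Fyn (0.56 ± 0.14), Hcst, the adaptor DAP10 of NKG2D (0.49 ± 0.13), and Runx3 (1.06 ± 0.37).

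The change of the stem cell effect between the schedules was tested directly, as the effect at 5 h minus that at 2 h. Of the 8 genes 0 passed in limma, against 0.0137% of all genes, and 0 had an unadjusted p below 0.05. The difference was 1.08 ± 0.69 for Gzmb and 0.62 ± 0.28 for Gzma, both with an adjusted p of 1 in limma. This test did not separate the stem cell effects of the 2 schedules.

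**Figure D3:**
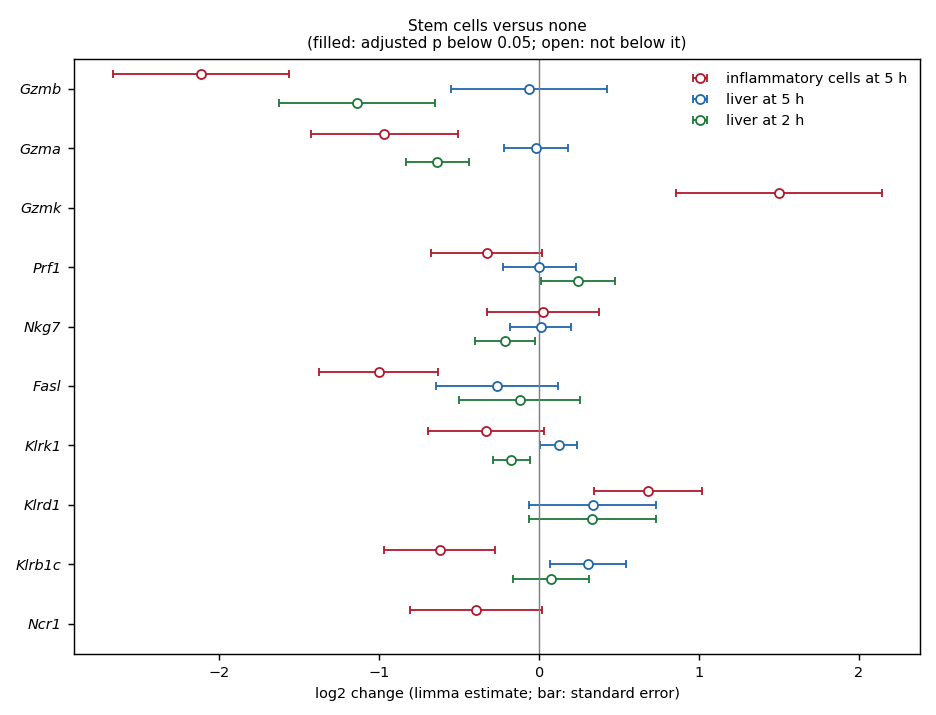
Log2 change with stem cells against none for the 10 genes in inflammatory cells at 5 h and the 8 that passed the filter in livers at 5 h and at 2 h (limma estimates, bars are standard errors). All points are open, since no change passed the adjusted threshold, and Gzmb in the inflammatory cells lies furthest below 0 at -2.12.

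In the inflammatory cells, Gzmb was again the gene that differed most. It was 3.24 and 3.97 in the 2 samples with stem cells, against 6.40 and 5.05 in the 2 without. The groups did not overlap, and the difference of -2.12 ± 0.55 is a 4.34-fold lower level with stem cells (adjusted p = 0.176, limma). Fasl, the death ligand, was 0.61 and 0.50 in the treated samples against 1.27 and 1.84 in the untreated ones, a change of -1.004 ± 0.37 (adjusted p = 0.252), and its second probe differed by -0.53. Gzma was 5.39 and 5.16 with stem cells and 6.24 in the untreated sample 983. The Gzma spot of the other untreated sample, 985, was marked as non-uniform by the scanner software and read 5.19, so its change of -0.97 ± 0.46 (adjusted p = 0.342) rests on 1 untreated sample. With that spot kept it was -0.44 (adjusted p = 0.623, with 0.0899 to 0.775 over every setting tried).

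Of the 10 genes 0 passed in limma in this comparison, against 0.0141% of all genes, and 2 had an unadjusted p below 0.05. Of the 9 genes with both samples in each group, 7 had groups apart, 5 lower and 2 higher with stem cells, beside 52.5% of all genes apart in either direction. Gzma is not among them, since its 1 untreated sample lay above the treated ones while the marked spot of the other lay between them. The median change was -0.36, beside 0.09 over all genes. Klrb1c differed by -0.62 ± 0.35 and Ncr1, which encodes the activating receptor NKp46, by -0.39 ± 0.41. Prf1 differed by -0.33 ± 0.35, Klrk1 by -0.33 ± 0.36 and Nkg7 by 0.02 ± 0.35. The second Klrb1c probe read 0.25 and -0.31 with stem cells and 0.59 and 0.04 without, so its groups overlapped. That of Klrk1 was apart and lower, at -2.11 and -2.26 with stem cells against -1.69 and -1.16 without. Klrd1 was 3.82 and 3.77 in the samples with stem cells against 3.13 and 3.11 in those without, a change of 0.68 ± 0.34 (adjusted p = 0.345). Gzmk, a granzyme of less differentiated effector and memory T cells, was -4.20 and -2.41 in the treated samples against -5.16 and -4.45 in the untreated ones, and the lowest value was not well above background. With 2 samples a group, the call of Gzmb turned on the setting: it passed with normexp (-2.36, adjusted p = 0.000777) and without sample 985 (-2.79, adjusted p = 0.0183, when 2083 genes passed), over a range of 0.000777 to 0.708.

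The 7 lists of the NK programme, which include the 10 genes, gave 0 calls of 136 genes in limma in the inflammatory cells, with 35 (25.7%) at an unadjusted p below 0.05, beside 17.9% of all genes. Of the cytokines and their receptors 21 of 28 lay below 0, with a median change of -0.81 beside 0.09 over all genes, and 17 of 28 were apart and lower with stem cells, as were 24.9% of all genes. Ifng, interferon gamma, averaged 4.21 with stem cells and 7.17 without, a change of -2.95 ± 0.37 (adjusted p = 0.0912), and Il2ra, the high-affinity chain of the interleukin 2 receptor, changed by -4.27 ± 0.54 (adjusted p = 0.0963). Tbx21, the transcription factor T-bet, changed by -2.61 ± 0.61 (adjusted p = 0.162), Prdm1 by -1.57 ± 0.34, and Gzmd, another granzyme gene, by -1.70 ± 0.51. Unc13d, which primes granules for release, changed by 1.29 ± 0.37 and Plcg2 by 1.22 ± 0.46. The 34 measured NK receptors were split evenly, 17 above and 17 below 0, with a median of -0.01. Markers of other cells differed between the same samples: 15 of 15 macrophage markers were above 0 in change, with mean centred levels of 0.51 to 0.55 with stem cells and -0.94 to -0.11 without. Neutrophil markers lay at 0.52 to 0.54 with stem cells and -0.73 to -0.32 without, and hepatocyte markers at -0.12 to 1.07 with stem cells and -1.15 to 0.20 without. The 18 T cell markers ran from -0.56 to 0.26 with stem cells and from 0.10 to 0.21 without, with a median change of -0.35. Their part in the values of the 10 genes was not tested.

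The 8 genes that passed the filter in the livers stood far higher in the inflammatory cells than in liver at 5 h. With stem cells 8 of 8 were called higher, and without 8 of 8, where 63.8% and 61% of all genes were called in either direction and 28.3% and 29.3% were called higher. The median difference of the 8 was 5.26 with stem cells and 5.76 without, beside -0.23 and -0.04 over all genes. Klrd1 differed by 6.73 ± 0.41 with stem cells and 6.38 ± 0.41 without, and Prf1 by 5.398 ± 0.26 and 5.73 ± 0.26. Gzma differed by 5.78 ± 0.23 with stem cells and by 6.73 ± 0.29 without, the second from 1 untreated sample of cells. Nkg7 differed by 5.20 ± 0.22 and 5.19 ± 0.22, and Klrb1c by 5.33 ± 0.26 and 6.26 ± 0.26. Fasl differed by 5.06 ± 0.41 and 5.80 ± 0.41. At 5 h Fasl was well above background on 1 of 3 livers in each group, so its differences rest on liver values near background. Ncr1 and Gzmk passed the filter through the cells alone, so their calls are given as a description only. Ncr1 was 0.63 and 0.33 in the cells with stem cells and 1.27 and 0.49 in those without, and was not well above background on any of the 12 livers. It was therefore at least 22.6-fold higher in the cells than in liver with stem cells, and at least 36.4-fold higher without. With normexp, the differences with stem cells that shrank by over 1.5 times were those of Fasl (2.36), Klrk1 (2.23), Klrb1c (3.44) and Ncr1 (2.47 in place of a fitted 6.29), Gzmk aside, and all 4 kept their calls.

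**Figure D4:**
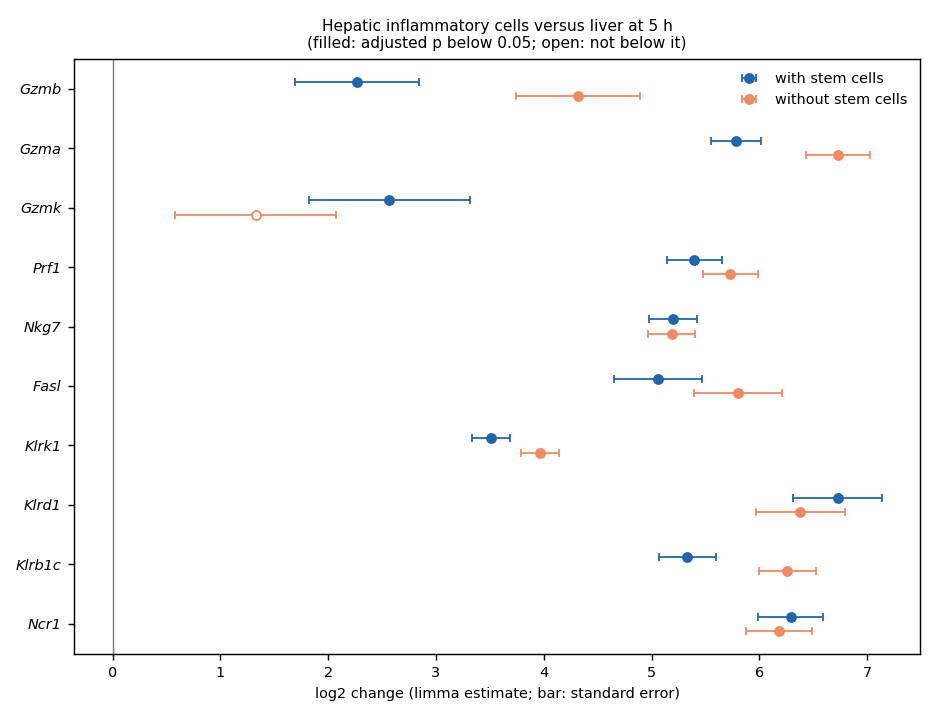
Log2 difference between hepatic inflammatory cells and liver at 5 h for the 10 genes, with stem cells and without (limma estimates, bars are standard errors). All points except that of Gzmk without stem cells are filled, and Gzmb lies lowest among the other 9 with stem cells, at 2.27. Ncr1 and Gzmk were not above background in liver at 5 h, so their plotted estimates are no bounds.

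Gzmb differed least between the tissues among the 9 genes besides Gzmk with stem cells, by 2.27 ± 0.57 (adjusted p = 0.00376), and by 4.32 ± 0.57 (adjusted p = 2.46e-05) without. Klrk1 came next with stem cells, at 3.51 ± 0.17, and without stem cells it was Klrk1 that differed least of these 9, at 3.97 ± 0.17. Gzmk was low in both tissues: it was at least 1.64-fold higher in the cells with stem cells (adjusted p = 0.00872), and that call was lost with normexp (adjusted p = 0.208) and without sample 989 (0.13), over a range of 0.00403 to 0.208. Without stem cells it was well above background in 1 of the 2 samples of cells and in no liver at 5 h, so no fold is given, and it was not called (adjusted p = 0.141). The effect of stem cells in the cells minus that in liver was -2.05 ± 0.81 for Gzmb (adjusted p = 0.212), -0.95 ± 0.38 for Gzma and -0.93 ± 0.37 for Klrb1c. Of the 10 genes 0 passed this test in limma and 3 had an unadjusted p below 0.05, while 2.24% of all genes passed.

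Other genes of the lists followed the tissues. Of 34 NK receptors 17 had passed the filter in the livers too, and of 15 adaptors and signalling genes 13 had, while the rest entered through the cells alone. The 17 receptors and 13 adaptors were each called higher in the cells, with stem cells and without. Among them were the Ly49 gene Klra7 (6.21 ± 0.28 with stem cells and 6.06 ± 0.28 without) and the adaptor gene Hcst (4.86 ± 0.20 and 4.91 ± 0.20). Eomes, a transcription factor of NK cells, and Gzmc were not well above background in any liver at 5 h. Their folds are therefore bounds and are given as a description only. Eomes stood at least 23.5-fold higher in the cells when stem cells had been given and at least 35.3-fold higher without. Gzmc stood at least 15.4-fold and at least 29.95-fold higher. Of 11 transcription factors and 20 granule genes, 2 each had passed the filter through the cells alone. Ligands of NK receptors were called in both directions: of the 14 that passed in the livers, 8 were lower in the cells with stem cells and 6 without, while 3 were higher in each comparison, and the lower ones included Nectin2 (-4.54 ± 0.33 and -4.02 ± 0.33) and the NKG2D ligand gene Raet1a (-4.64 ± 0.33 and -5.09 ± 0.33). Fas, the receptor of Fas ligand, was lower in the cells, with differences of -4.16 ± 0.59 with stem cells and -2.34 ± 0.59 without. In the difference of the stem cell effects between the tissues, 2 of 138 list genes passed, Il21 (-3.66 ± 0.71, adjusted p = 0.023) and Il2ra (-4.81 ± 1.04, adjusted p = 0.0341).

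Ordered by their means over the 6 groups, the genes did not share 1 pattern. In Gzmb and Gzma the untreated cells stood first, the cells with stem cells next, then the livers at 5 h and last the livers at 2 h. For both genes the livers at 5 h with and without stem cells overlapped, as did the livers at 2 h. The other neighbours of Gzmb did not, while the untreated cells of Gzma are 1 sample, whose place above the treated ones has no spread behind it, and the marked spot of the other lay within the treated range. In Klrk1 the tissues and times took that order too, and the livers at 5 h were the 1 overlapping pair. Klrd1 had the cells with stem cells first and, among livers, the 2 h groups above the 5 h groups, with every pair of neighbouring liver groups overlapping. Klrb1c, Prf1 and Ncr1 showed no liver group apart from its neighbours, as was so for Fasl. In Nkg7 and Ncr1 the cell groups overlapped each other, and in Gzmk the untreated cells overlapped the livers at 2 h with stem cells.

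Over the 12 livers the 8 genes varied in different directions. Their 28 pairs had a median Pearson r of 0.02, between -0.86 (Gzmb with Klrd1) and 0.94 (Gzma with Gzmb), and taken as deviations from group means the 2 pairs gave -0.67 and 0.67. These livers share the split into 2 times and 3 slides, so r describes these arrays only. The genes nearest to Gzmb over the 12 livers were Samhd1 (r = 0.993), Eif2ak2 (0.99), Gnl2 (0.989), Xpo5 (0.988) and Nolc1 (0.988). Nearest to the mean of the 8 genes were Sav1 (0.972), Dab2 (0.971), Slfn1 (0.969), Il17ra (0.969) and Lilrb4a (0.968). Gzmb ranged most widely over the 12 livers, from -2.37 to 1.84, so it weighs most in this mean of centred log2 values. As the 8 genes did not move together, the mean is no profile that they share.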

How the data were processed

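RNA of 12 livers and 4 samples of hepatic inflammatory cells was hybridised to 1-colour Agilent arrays. The values are intensity on a linear scale, which per the file headers was background-subtracted and detrended before the authors deposited it, with no normalization between arrays. Agilent Feature Extraction 10.5.1.1 is named in the submitters' processing notes. Each array was scaled here as log2 of the processed signal minus its 75th percentile over all spots except controls. Spots marked as outliers were left out after that scaling. A probe was kept if well above background on at least 3 liver arrays, 2 arrays of inflammatory cells, or 2 arrays for both tissues, and the brightest kept probe stood for its gene. Limma 3.58.1 in R 4.3.3 was fitted to 14604 genes in livers, 14213 in cells and 16262 in both, with 2-sided tests, Benjamini-Hochberg adjustment over all genes and a threshold of 0.05. A fold against a group below background is a lower bound, set at the floor of each array. Scripts were tested on simulated data. All 10 genes are named. Of each other list up to 5 genes per direction with the smallest p past the threshold could be named, or the 2 with the smallest p where none passed, and of likeness the 5 nearest genes. The genes and lists were chosen with earlier results of these data known. Alternatives were scaling, quantile normalization, normexp with an offset of 50, filters, probes, array weights, slide, samples and leaving out samples.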

Additional observations from a re-analysis of the deposited data

How the results depend on the processing

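Of 1329 values of the 10 genes under other settings, 1238 kept their direction and side of the threshold, 70 turned, 13 gained and 8 lost a call. Of 24 changes past the threshold, 1 turned: Klrk1 between the times with stem cells, at -0.1695 with normexp. The cause was not tested for any of these. The number of the 10 genes called with stem cells against none at 2 h, 0, became 1 with array weights and without livers 10 and 13, and ran from 0 to 1 with single livers left out. In the inflammatory cells, 0 became 1 with normexp and ran from 0 to 1 with single samples left out. Between the times with stem cells, 3 became 1 with normexp and 6 with array weights, and ran from 3 to 4. Between the times without, 2 became 1 with normexp and 0 with only the groups compared, and ran from 1 to 3. The count over all genes moved with the setting too. With normexp, 814 were called between the times with stem cells and 287 without, beside 2710 and 2288 as reported. Array weights gave 4849 between the times with stem cells, and 498 beside 4 for stem cells at 2 h.

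The other values that turned had not passed the threshold. With normexp, Gzma (0.01395), Fasl (0.6891) and Klrk1 (0.6099) turned for stem cells at 2 h, Fasl (0.3958) and Nkg7 (-0.003961) at 5 h, Nkg7 (-0.2666) in the cells, Prf1 (-0.251) between the times with stem cells, and Gzmk (-0.0002075) between cells and liver without. Under it the difference between schedules turned for Gzma (-0.02428), Klrb1c (-0.3582), Klrk1 (-0.4136) and Klrd1 (-0.3511), and that between tissues for Ncr1 (-0.5657) and Nkg7 (-0.2626). With quantile normalization Klrb1c at 2 h (-0.02549), Prf1 at 5 h (-0.08257), Klrb1c between the times (0.03265) and Klrd1 between schedules (-0.06489) turned. With the percentile over detected probes these were Prf1 (-0.01512) and Nkg7 (-0.006513) at 5 h and Klrd1 between schedules (-0.009021). With the mean of probes they were Fasl (0.1174) and Nkg7 (-0.04408) at 5 h and Fasl between schedules (0.2555). With array weights they were Gzma (0.05421) and Prf1 (-0.05872) at 5 h and Klrd1 between schedules (-0.06651). Without livers 10 and 13 they were Prf1 between the times (-0.1451), and Fasl (0.03838) and Klrd1 (-0.168) between schedules.

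Leaving out 1 sample at a time gave, for stem cells at 2 h, -0.03115 to 0.4614 for Prf1, -0.4889 to 0.2232 for Fasl and -0.04069 to 0.1545 for Klrb1c. At 5 h it gave -0.1011 to 0.08988 for Gzma, -0.2483 to 0.1582 for Gzmb, -0.03469 to 0.06589 for Prf1, -0.02971 to 0.6459 for Klrd1 and -0.06629 to 0.101 for Nkg7, and in the cells -0.1147 to 0.158 for Nkg7. Between the times with stem cells it gave -0.1451 to 0.3475 for Prf1 and -0.216 to 0.1733 for Klrb1c. Between schedules it gave -0.4595 to 0.03307 for Prf1, -0.4874 to 0.2247 for Fasl and -0.3622 to 0.3134 for Klrd1, and between tissues -0.2812 to 0.4996 for Ncr1 and -0.1253 to 0.1475 for Nkg7.

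No paired analysis was possible because the groups share no replicate numbers in the labels. With slide as a block instead, Nkg7 gained a call between the times with stem cells (0.56, adjusted p = 0.0446 in limma), and no other call of the 10 genes changed in any comparison of livers. Over all genes, the count called ran from 287 to 3454 (2288 as reported) between the times without stem cells and from 814 to 4849 (2710) with them. It ran from 0 to 498 (4) for stem cells at 2 h, from 0 to 232 (5) at 5 h and from 0 to 2083 (2) in the cells. Fasl, Gzmk, Klrb1c, Klrk1 and Ncr1 were dim in liver, and 2 samples a group of inflammatory cells limit what that comparison can resolve.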
